A study of Mus musculus with 6 samples.

Results

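miR-451, miR-144 and miR-486 are microRNAs of the red cell lineage. They were read here in lungs of newborn mice as a measure of the red cells, and the red cell precursors, that each sample held. The members are the wells of the deposited table whose miRNA name is miR-451, miR-144 or miR-486 once species prefix, arm and assay number are dropped, with minor strands (marked # or *) left out. The rule used names and no measured value. It found 3 of 750 miRNA wells: mmu-miR-451 and mmu-miR-486 among the 375 wells of the first PCR card, and hsa-miR-144 among the 375 of the second.

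The study compared lungs of newborn mice that spent 7 days in 95% oxygen (hyperoxia, 3 samples) with lungs of pups kept in room air (3 samples), all taken at day 7. Exposure began before 12 hours of age, and dams changed between oxygen and room air every 24 hours. Per the labels' protocols the pulmonary artery was flushed with PBS before the right lung was removed, so these are flushed lungs and not blood. The sources used here do not state strain, sex or the number of animals behind a sample, nor whether the replicates came from separate litters, so the p-values speak of the scatter among 6 samples, some or all of which may be technical.

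miR-144 and miR-451 are cut from a common transcript that the erythroid factor GATA1 switches on, and both accumulate as red cell precursors mature. miR-451 is unusual in that Dicer plays no part: its short hairpin is cut by the Argonaute protein Ago2 itself. It represses Ywhaz, and red cells without it are more easily damaged by oxidants, while miR-144 represses Nrf2, a factor that switches on antioxidant genes. miR-486 lies in the gene of ankyrin 1, a protein that ties the red cell membrane to its skeleton, and it is also abundant in heart and skeletal muscle.

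The mature sequences and their hairpins are shown because they set apart how the miRNAs of the common transcript are made. Both hairpins lie on the plus strand of chromosome 11 between the protein-coding genes Flot2 and Eral1, 99 bases apart, by RefSeq annotation of GRCm38.p6. Mature miR-451 is at chr11:78073186-78073207 and mature miR-144 at chr11:78073047-78073066. In the mature sequences capitals mark the seed (bases 2 to 8), and in the hairpins they mark the mature miRNA.
miR-451: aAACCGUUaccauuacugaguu
miR-144: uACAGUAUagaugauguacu
Mir451a hairpin: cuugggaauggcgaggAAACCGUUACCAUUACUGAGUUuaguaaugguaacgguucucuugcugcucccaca
Mir144 hairpin: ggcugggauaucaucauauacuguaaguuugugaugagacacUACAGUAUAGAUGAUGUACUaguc
Mature miR-451 covers bases 17 to 38 of a 72-base hairpin and so runs past its middle, whereas mature miR-144 covers bases 43 to 62 of 66, at the 3′ end. The seeds differ, and no other of the 1738 mature mouse miRNAs of the table has either seed. miR-101a shares bases 2 to 7 with miR-144. A further gene, Mir451b, lies at the position of Mir451a on the opposite strand. Mir486 lies within the span of Ank1. The hsa-miR-144 assay carries a human name without an arm, which is taken here as the 3′ strand printed above.

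Levels are threshold cycles (Ct), the PCR cycle at which a well crosses the detection threshold, so that a later Ct means less RNA and 1 cycle a fold of 2 at full efficiency. Relative levels are log2 values that set each Ct against its card's average miRNA, taken over assays with a Ct under 35 in all samples used. They compare samples for a given assay. They do not rank the members against each other, since assays differ in efficiency. Between 307 and 319 miRNAs came up per sample on card 1, and between 268 and 288 in the samples used on card 2. On the second card, room air 1 and hyperoxia 2 held the identical Ct in 308 of the 309 wells amplified in both, against 0 of 312 on the first card. Those second-card values cannot belong to both samples and were left out, so hsa-miR-144 rests on 2 samples per group. All 4 endothelial assays and all 10 epithelial assays listed were detected in every sample used on their card.

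miR-451 did not differ between the groups beyond its spread, and that spread was among the widest on the card. Its Ct in room air was 22.99 in replicate 1, 20.42 in replicate 2 and 20.20 in replicate 3. In hyperoxia it was 20.30, 22.48 and 20.97 in replicates 1, 2 and 3. The groups overlapped, and in each of them a single sample came later than the rest, room air 1 and hyperoxia 2. The relative levels of the room air lungs were -0.97, 2.06 and 2.40, and those of the hyperoxia lungs were 3.16, 0.13 and 2.34. Mean relative levels were 1.17 ± 1.85 (SD, n = 3) and 1.88 ± 1.57 (SD, n = 3), a log2 fold change of 0.71 ± 1.20 (SE). limma gave an unadjusted p of 0.576 and an adjusted p of 0.868. The 95% interval ran from -2.27 to 3.70, that is from 0.207-fold to 13.0-fold, so these samples do not bound the change of miR-451 closely. Under each reference tried the change was positive, from 0.15 (control RNAs) to 0.71 (mean of the card). As plain Ct, with no reference, hyperoxia was later by 0.048 cycles, because the first-card mean was itself later by 0.76 cycles in hyperoxia. Without room air 1 the log2 fold change was -0.35, and without hyperoxia 2 it was 1.60. It was 0.061 without hyperoxia 1, 0.45 without hyperoxia 3, 1.16 without room air 2 and 1.32 without room air 3. Which sample was left out thus decided the sign and the size.

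miR-486 followed the same samples. Its Ct was 21.23, 19.90 and 20.63 in room air replicates 1, 2 and 3, and 20.41, 22.01 and 20.90 in the hyperoxia replicates. Room air 1 and hyperoxia 2 were again the latest of their groups, and the groups overlapped. Relative levels were 0.80, 2.58 and 1.97 in room air, averaging 1.79 ± 0.91 (SD, n = 3). The hyperoxia samples stood at 3.06, 0.60 and 2.41, averaging 2.02 ± 1.27 (SD, n = 3). The log2 fold change was 0.24 ± 0.79 (SE), with a limma adjusted p of 0.935 and a 95% interval from -1.72 to 2.20. Its sign was not stable: it was -0.089 relative to U6, -0.33 relative to the control RNAs, -0.52 as plain Ct, -0.26 without room air 1 and -0.29 without hyperoxia 1. It was 0.96 without hyperoxia 2, 0.64 without room air 2, 0.32 without room air 3 and 0.014 without hyperoxia 3.

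**Figure D1:**
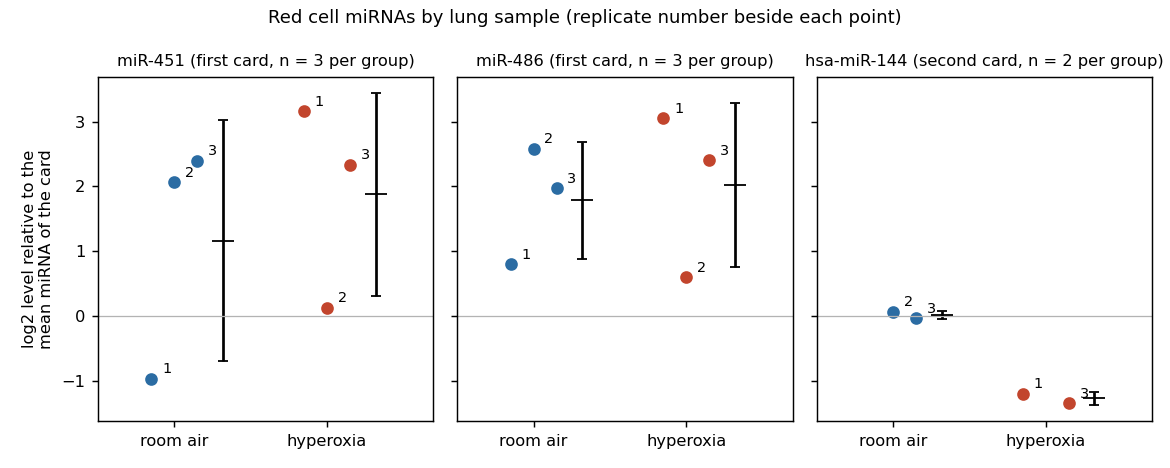
Each point is the level of 1 lung sample in log2 units relative to the mean miRNA of its card, for room air (blue) and hyperoxia (red), with the replicate number beside it. Black bars give the mean ± SD of the group. Room air 1 and hyperoxia 2 are the lowest points for miR-451 and for miR-486, whereas the groups of hsa-miR-144, with 2 samples each, do not overlap.

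Of the 3 members, 0 passed the limma threshold of 0.05 on the adjusted p. Of all 551 assays tested, 0 passed (0%), and 50 (9.07%) had an unadjusted p under 0.05, among them hsa-miR-144. Lower in hyperoxia at that level were 30 (5.44%), and of the 249 assays of the second card 17 (6.83%) reached it in either direction. The groups of miR-451 and miR-486 overlapped, whereas on the first card 68 of 302 assays (22.5%) showed no overlap. As the labels allow no split into batches, no value within a batch could be given.

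miR-451 and miR-486 deviated together within the groups. The deviations from the group means correlated at 0.93 over the 6 samples (Pearson, a description with no test). Both assays share samples, card and reference. By rank the relative levels correlated at 0.71 (Spearman), and room air 2 and 3 stood in opposite order for the 2 miRNAs. miR-451 lay 3.03 log2 units below the next sample in room air 1 and 2.21 below it in hyperoxia 2. For miR-486 these gaps were 1.17 and 1.81. Of the 282 first-card assays with a value in all samples, 47 (16.7%) had both of these samples lowest in their group. By at least 1 log2 unit in both groups there were 3 (1.06%): miR-451, miR-486 and miR-184, best known from the corneal epithelium. The pattern was seen before it was counted, so the count is a description. The pooled SD within groups was 1.72 log2 units for miR-451, above that of 257 of the 282 assays (91.1%), and 1.10 for miR-486, above that of 240 (85.1%). The median assay had 0.42. In bulk samples, fewer red cells and less of these miRNAs per cell cannot be told apart.

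**Figure D2:**
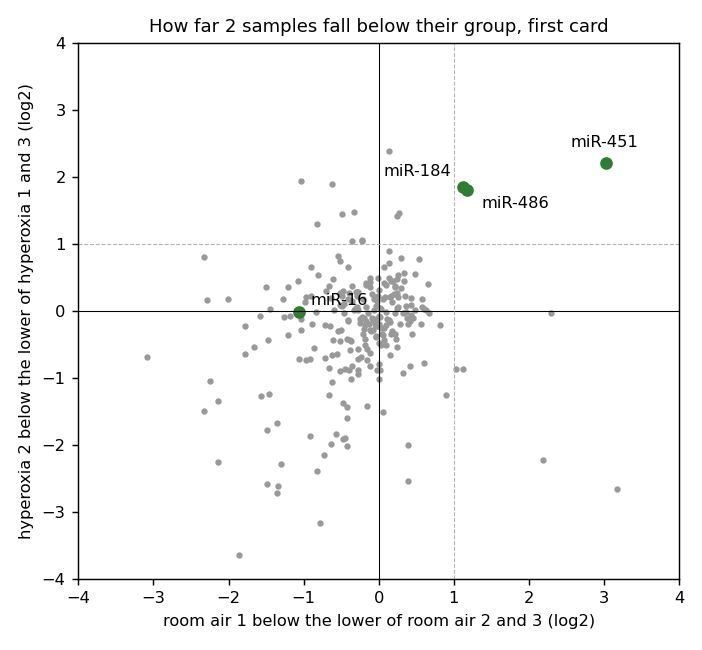
Each point is a first-card miRNA assay. The axes show how far room air 1 (horizontal) and hyperoxia 2 (vertical) lie below the lower of the other samples in their group, in log2 units, with negative values where they do not lie below it. Dashed lines mark 1 log2 unit, beyond which only miR-451, miR-486 and miR-184 lie on both axes. Of the miRNAs abundant in red cells besides the members, miR-15a, miR-15b, miR-107 and miR-425 lie between 0 and 1 on both axes. The other first-card assays of that list do not lie above 0 on both, among them the labelled miR-16 (-1.06 and -0.024). The 17 assays above 4 or below -4 on either axis are outside the plot.

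The low samples are the ones whose second-card values coincide, and the part of that in the result was not tested. The mean relative level of 9 first-card leukocyte assays was 2.83 in room air 1, between the other room air samples (2.67 to 2.94), and 3.16 in hyperoxia 2, the highest of its group. For 15 miRNAs that are abundant in red cells besides the members it was 4.12 in room air 1, in a range of 4.12 to 4.18, and 4.25 in hyperoxia 2, in a range of 3.73 to 4.25. The place of hyperoxia 2 rested on miR-25, which was at 7.37 there and at 1.04 to 1.62 in the others. Without it, by a choice made after the data were seen, the mean of the other 14 was 4.02 in hyperoxia 2, between 3.92 and 4.16 in the other hyperoxia samples. In room air 1 it was then 4.32, between 4.317 and 4.395. The share of red cells in the levels of these miRNAs was not tested. Epithelial miRNAs, in contrast, were low in hyperoxia 2 as well. The mean of 8 first-card epithelial assays was 2.63 there, against 3.41 and 3.43 in hyperoxia 1 and 3. It was 3.16 in room air 1, against 3.23 and 3.43 in room air 2 and 3. All 8 were lowest in hyperoxia 2 within their group, by up to 1.48 log2 units (miR-375), and 3 of them (miR-141, miR-200a and miR-205) were also lowest in room air 1, by up to 0.30 (miR-205). The part of the epithelial share in the low miR-451 and miR-486 of hyperoxia 2 was not tested. miR-486 is also a muscle miRNA, and the mean of the 7 first-card striated muscle assays was highest in these samples, at -1.02 and -1.70. That rested on miR-499, whose Ct was 11.81 in room air 1 and 17.63 in hyperoxia 2 but 29.88 to 34.04 in the others. Without it, by a choice also made after the data were seen, the mean of the other 6 muscle assays was -2.89 and -2.81 in these samples. Room air 1 was then the lowest of its group (-2.17 and -2.70 in room air 2 and 3). Hyperoxia 2 was the highest of its own (-3.03 and -3.51 in hyperoxia 1 and 3). The part of muscle in the miR-486 of these samples was not tested.

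A ratio of miR-451 to miR-486 needs no reference, since both assays are on a single card. The log2 ratios of the room air samples were -1.77, -0.52 and 0.43, against 0.11, -0.47 and -0.071 for those in hyperoxia. The groups overlapped, and the difference was 0.47 (exact two-sided permutation p = 0.6, where 3 against 3 allows no less than 0.1). It was -0.098 without room air 1 and 1.00 without room air 3. The ratio of miR-451 to miR-23a, used in blood work to detect burst red cells, was -0.72, 3.22 and 3.38 in the room air samples, against 0.89, 0.48 and 3.40 for those in hyperoxia. This ratio was low in hyperoxia 1 as well, where miR-23a had its earliest Ct (21.19). The difference was -0.37 (exact two-sided permutation p = 1). It was 0.26 without room air 2, 0.34 without room air 3, 0.18 without hyperoxia 2 and -1.71 without room air 1. Together with the ratio to miR-144 given below these make 3 comparisons, whose exact permutation p after Benjamini-Hochberg adjustment were 0.9, 1 and 0.9.

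hsa-miR-144 was lower in hyperoxia in the samples that could be used, with small spread, and did not pass over all assays. Its Ct was 25.04 in room air 2 and 25.01 in room air 3, and 26.40 in hyperoxia 1 and 26.59 in hyperoxia 3. The groups did not overlap and each varied by less than 0.2 cycles. Relative levels averaged 0.019 ± 0.067 (SD, n = 2) and -1.27 ± 0.11 (SD, n = 2). The log2 fold change was -1.29 ± 0.32 (SE), or 0.409-fold, with a 95% interval from 0.216-fold to 0.778-fold. The pooled SD of 0.0887 log2 units was above that of only 6 of 249 second-card assays (2.41%), from 2 samples a group. limma gave an unadjusted p of 0.0192, the 19th smallest of 551, and an adjusted p of 0.446. Without overlap in the same direction stood 42 of 249 second-card assays (16.9%), and in either direction 73 (29.3%), so separation of the groups is common on this card. The exact permutation p was 0.333, the smallest that 2 against 2 allows.

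The value that room air 1 and hyperoxia 2 share for hsa-miR-144 was a Ct of 24.97. It lay 0.05 cycles before the mean of room air 2 and 3 and 1.52 cycles before the mean of hyperoxia 1 and 3. Assigned to room air 1 it leaves the change at -1.34 (limma adjusted p = 0.372), assigned to hyperoxia 2 at -0.81 (0.688), and kept in both at -0.86 (0.791). The shared Ct was earlier than all others of hsa-miR-144, whereas miR-451 was latest in room air 1 and hyperoxia 2. The median of the card as reference gave -0.91 and the first-card mean -0.63. With 1 of the 4 samples left out, so that a lone sample is assumed to vary like the rest, the change ran from -1.48 to -1.23.

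The identity of this well has a limit of its own. On card 2, each of the 104 names with an assay number in it carries the number printed against the well 3 places further on. Taken by name, the control RNAs differed between the cards by a median of 0.72 cycles, against 6.96 cycles 3 wells later, and the names were used for that reason. In the well 3 places after hsa-miR-144, listed as miR-218-1#, the Ct was 24.39 and 24.93 in room air 2 and 3 and 24.36 and 25.00 in hyperoxia 1 and 3. If that well were miR-144, the log2 fold change would be 0.16 ± 0.46 (SE, limma adjusted p = 0.934).

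miR-451 and miR-144 come from a common transcript, and their ratio can be set out in the 4 samples that have both. With each miRNA relative to its own card, the log2 ratio of miR-451 to miR-144 was 2.00 and 2.43 in room air 2 and 3, and 4.36 and 3.68 in hyperoxia 1 and 3. The ratio was higher in both hyperoxia samples, by 1.81, with an exact permutation p of 0.333, which is the smallest possible here. As plain Ct the difference was 1.15. If the shared second-card values were assigned to room air 1 it was 2.92, and to hyperoxia 2 it was 0.45. In hyperoxia 2 the low miR-451 met a shared miR-144 level of 0.14, against -1.23 and -1.38 in hyperoxia 1 and 3 (relative levels with the shared values kept in both samples). In the same 4 samples miR-451 alone had a log2 fold change of 0.52 ± 0.45 (SE, limma adjusted p = 0.912). That of miR-486 was 0.45 ± 0.45 (SE, limma adjusted p = 0.912). Each SE was narrower than over 6 samples. The samples left out were the lowest of their groups for both miRNAs, so the narrower SE is no gain in precision.

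**Figure D3:**
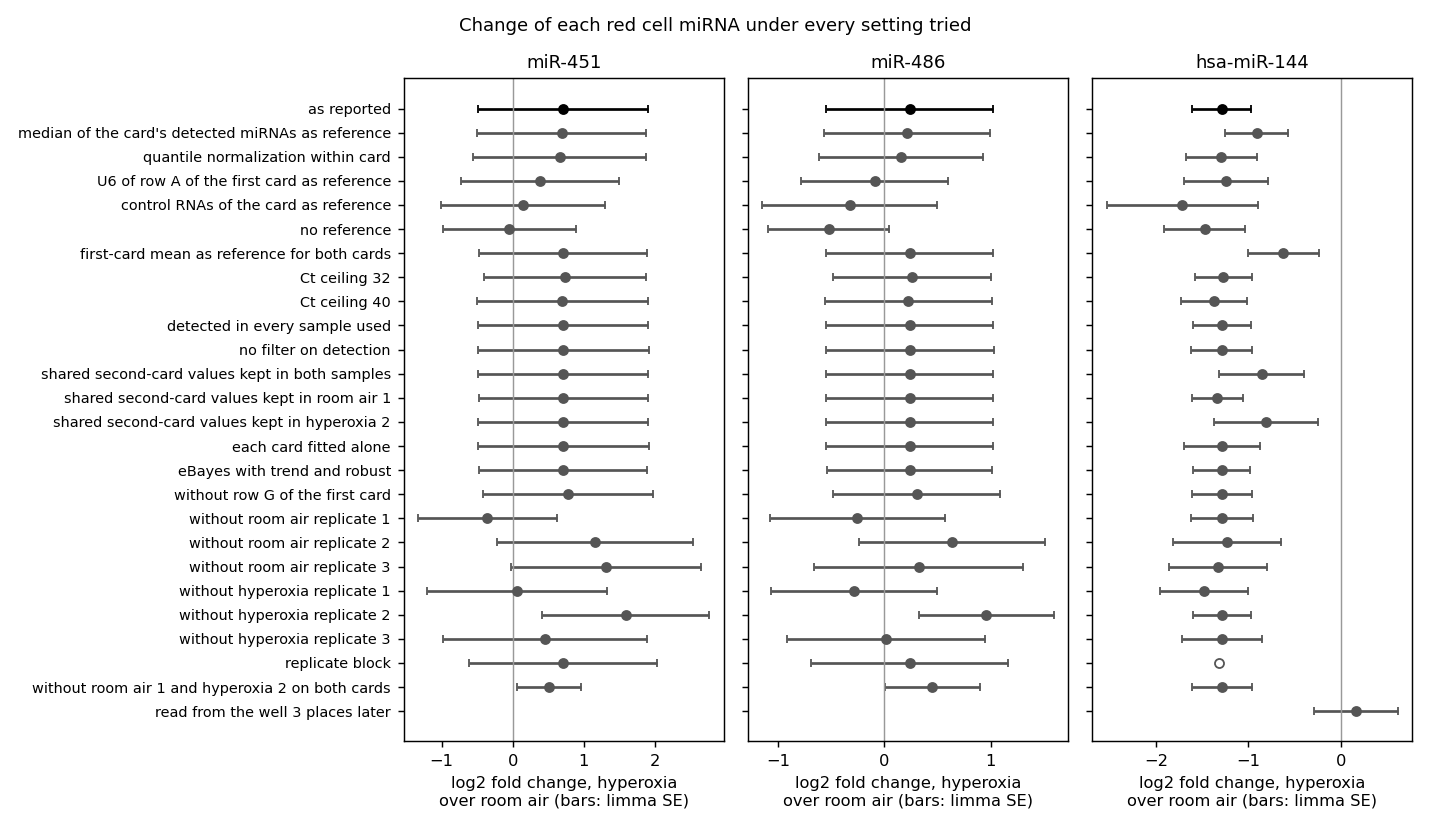
Log2 fold change of hyperoxia over room air for each member (panels) under the reported analysis (top, black) and each alternative (rows), with limma SE as bars and an open circle where no test was possible. miR-451 and miR-486 stay within about 1 SE of 0 in most rows. Both change sign in some rows with a sample left out and with no reference, and miR-486 also with some other references. hsa-miR-144 stays below 0 in all rows but the last, which reads another well.

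Relative to U6, the authors' deposited table gives folds of 1.31 for miR-451, 0.940 for miR-486 and 0.684 for hsa-miR-144. That table uses all 6 samples, the shared second-card values included, and carries no test.

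Among assays with similar values across samples, likeness was measured as the root mean square difference of log2 values, each assay centred on its mean over the samples. Over the 6 samples and 281 other first-card assays, the nearest to miR-451 were miR-184 (0.59), miR-486 (0.70), miR-425 (0.93), miR-34c (0.97) and miR-205 (1.00), where the median assay was at 1.52. The nearest to miR-486 were miR-184 (0.48), miR-496 (0.49), miR-34c (0.54), miR-465a-5p (0.59) and miR-425 (0.68), with a median of 1.00. miR-486 was thus the second nearest of 281 to miR-451, but miR-451 was not among the 5 nearest to miR-486, whose own swings were smaller. Of the assays named near miR-451 or miR-486, only miR-425 is on the list of miRNAs abundant in red cells besides the members. Over 4 samples of the second card, the nearest to hsa-miR-144 were miR-300# (0.14), miR-466g (0.14), a miR-449b assay (0.16), miR-1941-3p (0.19) and miR-466b-3-3p (0.25), with a median of 0.79. None of these is on the list of red cell miRNAs. Since likeness over these 4 samples takes in the difference between the groups, their own fold changes add nothing to that of hsa-miR-144.

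miRNAs that are abundant in red cells besides the members were mostly negative. Of 16 assays tested, 13 were below 0 and 3 above, with a median log2 fold change of -0.44 and 0 past the limma threshold. miR-425 is counted with an assay on each card. In bulk lung the cells behind these levels cannot be told apart, and the share of red cells in them was not tested. Over all 551 assays 319 were below 0 and the median was -0.12. miR-93, of the miR-106b cluster, had the smallest unadjusted p, at -0.95 ± 0.24 (SE, limma adjusted p = 0.333). miR-16, which acts against the cell cycle and is plentiful in red cells, was at -0.70 ± 0.35 (SE, limma adjusted p = 0.658), with relative levels of 8.41, 8.31 and 7.35 for room air, and of 7.31, 7.34 and 7.33 for hyperoxia. Room air 1, the sample with least miR-451, had the most miR-16, but room air 2 was close to it (8.31) with miR-451 at 2.06. On the first card miR-15a, miR-15b, miR-106b, miR-107 and miR-425 were lowest of the room air group in room air 1. The other first-card assays of the list were not. The highest value was miR-25 at 1.92 ± 1.73 (SE), whose Ct was 15.24 in hyperoxia 2 and 20.69 to 22.27 in the others. Assays of miR-425 disagreed: the first-card assay was at 1.06 ± 0.53 (SE) and the second-card assay hsa-miR-425, the lowest of the list, at -1.01 ± 0.47 (SE). The count below 0 was 12 to 14 of 16 under the 6 other references, against 231 to 436 of 551 for all assays.

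miRNAs known to act in red cell development were at both sides of 0. Of 20 assays, 11 were positive and 9 negative, the median was 0.19 and 0 passed the limma threshold. The median was -0.08 relative to U6, -0.37 relative to the control RNAs and -0.51 as plain Ct. The highest was the p53-induced miR-34a at 2.55 ± 0.28 (SE, limma adjusted p = 0.0723), also the smallest unadjusted p, and the lowest was miR-150, which steers progenitors away from the red lineage, at -1.09 ± 0.27 (SE, limma adjusted p = 0.333).

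Other cells of blood were described by their lists. Of 10 leukocyte assays 5 were positive and 5 negative, with a median of 0.053 (-0.27 relative to U6), the myeloid miR-223 highest at 0.94 ± 0.55 (SE) and miR-150 lowest. Of 13 platelet assays 5 were positive, with a median of -0.27 that was 0.24 with the first-card mean for both cards. Its extremes were miR-21 at 1.61 and miR-26a at -1.60. In neither list did an assay pass (0 of 10 and 0 of 13, limma).

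Tissue lists gave the surroundings. The lists share assays and are not independent. All 4 endothelial assays are also on the red cell development list, as are miR-150, miR-155, miR-181a and miR-223 of the leukocyte list. Of 8 striated muscle assays 7 were negative, with a median of -0.42, which stayed negative under all 7 references tried, and 0 passed the limma threshold. The lowest was miR-208b at -1.06 and the highest hsa-miR-206 at 1.31. Of 10 epithelial assays 6 were negative with a median of -0.071, from miR-375 at -0.49 to miR-205 at 0.20 (smallest unadjusted p for miR-203), and of 4 endothelial assays 2 were positive, with miR-221 at 1.30 and miR-126-3p at -0.61 as extremes (0 of 10 and 0 of 4 passed the limma threshold). Of the liver and brain miRNAs, miR-122 was at -0.69 and miR-9 at 0.11, while miR-124 was not detected in 2 of the 3 room air samples and so was not tested. Its Ct was 30.6 in room air 1, and 29.9, 31.4 and 28.5 in hyperoxia 1, 2 and 3.

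**Figure D4:**
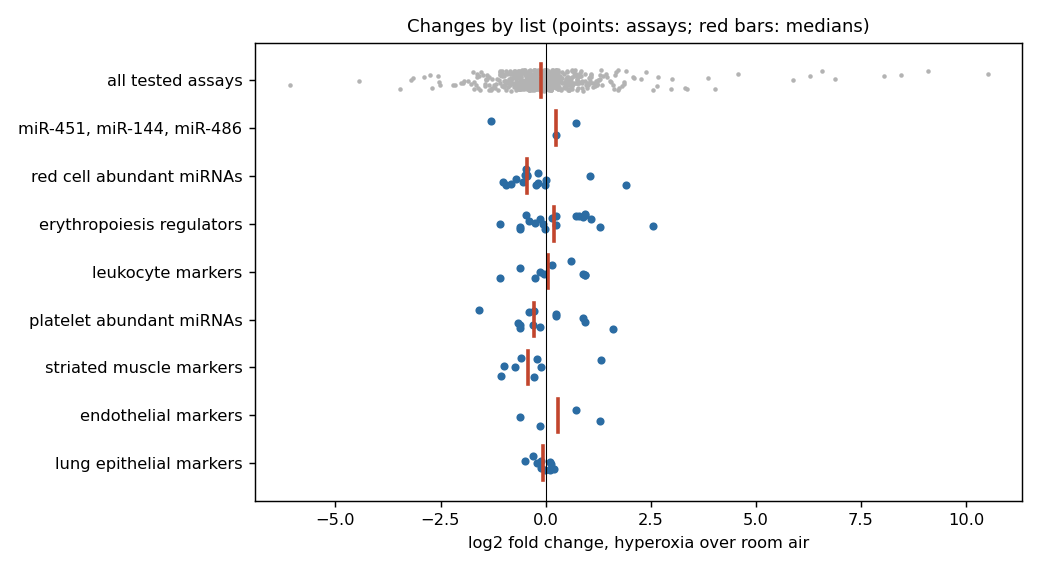
Log2 change from room air to hyperoxia for every tested assay (grey, top) and for the assays of each list (blue), with the median as a red bar. The red cell list has its median at -0.44 and all tested assays at -0.12, and the members stand at 0.71, 0.24 and -1.29.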

How the data were processed

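Small RNA of 6 lung samples was reverse transcribed with Megaplex primer sets A and B and pre-amplified for 12 cycles, per the labels' protocols. The authors deposited 1 table with a Ct for each of 768 wells, read here as 2 cards of 384, together with a fold of hyperoxia over room air, a ratio against U6 (row A, card 1). The sources used here do not name the instrument or its settings. Wells without amplification are listed at 40.

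Values were computed from the Cts in R 4.3.3 (limma 3.58.1), treating any Ct from 35 upward as missing. Each sample was set against the mean of the miRNAs detected in all samples used (282 on the first card, 249 on the second). Assays detected in at least 2 samples of each group were tested by limma (two-sided, lmFit then eBayes), p-values being adjusted by Benjamini-Hochberg for all 551 assays at 0.05, and the prior had 1.62 degrees of freedom. Ratios were compared by exact permutation tests. Sequences come from RefSeq (GRCm38.p6), in which 2 of the 3 members were matched.

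The members, the lists and the rule for named miRNAs were chosen with earlier results of these data known. The rule names the members, each list's extremes and smallest p, and the 5 nearest assays. Alternatives changed the reference, Ct ceiling, detection filter, shared values, well identity, samples and replicate block. The samples numbered alike were not treated as pairs, and a check of this is given with the alternatives. The number of samples limits the precision.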

Additional observations from a re-analysis of the deposited data

How the results depend on the processing

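No member passed the adjusted limma threshold under any of its alternatives (24 for miR-451, 24 for miR-486 and 25 for hsa-miR-144), with adjusted p from 0.734, 0.631 and 0.201 up to 0.994 for each. miR-451 turned to -0.048 with no reference and ran from -0.35 to 1.60 with 1 sample left out. miR-486 turned to -0.089 with U6 of row A, -0.33 with the control RNAs and -0.52 with no reference, and ran from -0.29 to 0.96 with 1 sample left out. hsa-miR-144 turned to 0.16 when read from the well 3 places later, and otherwise stayed between -1.72 and -0.63. With 1 sample left out the ratio of miR-451 to miR-486 ran from -0.098 to 1.00, that to miR-23a from -1.71 to 0.34 and that to miR-144 from 1.47 to 2.15. Of all assays 0 passed as reported, 1 with a Ct ceiling of 32, 1 with each card fitted alone, 1 with trend and robust settings, 2 with no filter on detection, and 0 to 4 with 1 sample left out (4 without hyperoxia 1). The cause of these changes was not tested.

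The replicate numbers gave no sign of pairing. Deviations of same-numbered samples correlated at -0.34, -0.23 and -0.18 on the first card, and no sample correlated best with its own number. With so few samples a group this check cannot exclude pairing, and the sources used here do not state litters. With the replicate number as a block, miR-451 was at 0.71 (limma adjusted p = 0.849), miR-486 at 0.24 (0.925) and hsa-miR-144 at -1.32, with no residual degrees of freedom and hence no test, and 0 assays passed. Leaving out room air 1 and hyperoxia 2 on both cards was chosen after the data were seen.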

Other observations

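miR-101a, whose bases 2 to 7 equal those of miR-144, is listed here for its sequence and not for its values. Its log2 fold change was 0.11 ± 0.30 (SE, limma adjusted p = 0.935), and that of miR-101b on the second card 0.043 ± 0.36 (SE, limma adjusted p = 0.969).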
